A study of Mus musculus with 6 samples.

Results

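Aminoacyl-tRNA synthetases join each amino acid to its transfer RNA (tRNA), and the cytosol and the mitochondria of mouse cells use largely separate sets of these enzymes, all encoded in the nucleus. The 36 genes described were chosen by name: 20 for the cytosolic enzymes and 16, with names ending in 2, for the mitochondrial ones. *Gars* and *Kars*, counted among the cytosolic genes, each encode enzymes for both compartments. All 36 were present among the 35602 genes of the count table, methionyl-tRNA synthetase under the name *Mars1*, and all 36 were among the 16269 genes that passed the filter on low counts. The lowest of their counts in a library was 218 and the highest 16075.

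The cytosolic enzymes charge the tRNAs that cytosolic ribosomes use, and several of them sit in a multisynthetase complex held together by scaffold proteins. The mitochondrial enzymes are imported and charge the tRNAs that serve the few proteins encoded by mitochondrial DNA. Genes of many cytosolic synthetases are known targets of the amino acid starvation response, in which uncharged tRNA activates the kinase GCN2 and the transcription factor ATF4, and activated T cells raise their synthetases as they begin to grow.

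CD4+ T cells from mouse spleen were stimulated through CD3 and CD28 and treated with a MAPK13 inhibitor (MAPK13-IN-1) or with its solvent DMSO, with 3 RNA-seq libraries per group. In replicates 2 and 3 of both groups, labelled WT and cultured in medium with serum, the inhibitor (17.1 µM) or DMSO was added after day 1, and the study's methods give 72 h of stimulation. The labels of the replicate 1 pair name only tissue, cell and treatment, and this pair was made with a different library kit. The comparison asks how the level of each synthetase mRNA differs between inhibitor-treated and DMSO-treated cells.

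Replicates 2 and 3 were deposited as counts, 26874805 and 28487403 in total for DMSO, 33854760 and 32617702 for the inhibitor. They are given below as CPM (counts scaled to library size, with TMM factors), in that order of libraries. The replicate 1 pair was deposited as 1 value per gene, taken to be FPKM, a measure corrected for the length of the gene. That unit was inferred from the values, the depth behind them is unknown, and this pair entered no test. Nothing in the labels says that the replicates came from separate cultures or animals, so the p-values measure only the spread between these libraries, which may be technical.

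Markers of cell types other than CD4 T cells were present. Of 10 markers listed for B cells, all 10 were in the count table, and their summed level was 1120 and 1098 CPM in the DMSO libraries and 1266 and 1296 CPM with the inhibitor. *Pax5* had the most counts among them over the 4 libraries together, though not in the DMSO libraries, at 178 and 168 CPM and then 263 and 271 CPM. Of the 10 markers, 7 were higher and 2 lower at an adjusted p under 0.05, beside 31.5% and 32.3% of all genes tested. In the replicate 1 pair, where levels can be compared between genes, the B cell markers summed to 53.0 FPKM in DMSO and 36.4 FPKM with the inhibitor, against 1112 and 1028 FPKM for the CD4 T cell markers.

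Of 10 CD4 T cell markers, 8 were in the count table, and their summed level was 1925 and 1958 CPM in DMSO and 1184 and 1307 CPM with the inhibitor. *Cd5*, with the most counts over the 4 libraries together but not in the inhibitor libraries, stood at 426 and 439 CPM and then 154 and 200.1 CPM. Of the 8 markers, 6 were lower by the same threshold, beside 32.3% of all genes tested. *Cd4* itself was at 275 and 276 CPM in DMSO and at 267 and 283 CPM with the inhibitor, so its groups overlapped. In the replicate 1 pair *Cd5* was at 262 and 193 FPKM and *Cd4* at 118 and 146 FPKM.

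Erythroid markers, 8 genes led over all 4 libraries together by *Hbb-bs*, summed to 7.83 and 7.43 CPM in DMSO and 89.8 and 64.5 CPM with the inhibitor. Macrophage and dendritic cell markers, 6 genes led by *Cd68*, summed to 13.1 and 12.3 CPM and then 40.7 and 34.1 CPM. The CD8 markers *Cd8a* and *Cd8b1* summed to 11.7 and 10.9 CPM in DMSO and to 5.49 and 7.85 CPM with the inhibitor, and the other way in the replicate 1 pair, to 3.49 and 8.39 FPKM. *Klra8* of the natural killer cell markers and *S100a9* of the neutrophil markers were at 0 counts in all 4 libraries, where the limit of 3 counts that a count of 0 allows was worth 0.0886 to 0.112 CPM before TMM scaling and covers counting error only. The summed natural killer markers (3 genes, led by *Klrb1c*) reached at most 0.423 CPM and the neutrophil markers (5 genes, led by *Mpo*) at most 0.767 CPM. Most of these marker levels move with the treatment in the counts, and their part in the results on the synthetases was not tested.

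Levels can be set side by side between genes in the replicate 1 pair. In the DMSO library of that pair the cytosolic synthetases ranged from 30.8 FPKM for *Farsa*, a subunit of phenylalanyl-tRNA synthetase, to 162 FPKM for *Nars*, which charges asparagine, with a median of 69.7 FPKM. The mitochondrial synthetases ranged from 1.76 FPKM for *Ears2* to 51.8 FPKM for *Lars2*, with a median of 7.06 FPKM. Mitochondrial leucyl-tRNA synthetase, *Lars2*, was thus the one mitochondrial gene above the lowest cytosolic gene in that library, and *Tars2* at 30.0 FPKM lay just below it. With the inhibitor the cytosolic median was 37.4 FPKM, with a range from 24.6 FPKM for *Cars* to 77.2 FPKM for *Kars*. The mitochondrial median was 6.39 FPKM, with a range from 1.496 FPKM for *Ears2* to 60.8 FPKM for *Lars2*. The gap between the compartments narrowed in this pair through lower cytosolic values.

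**Figure D1:**
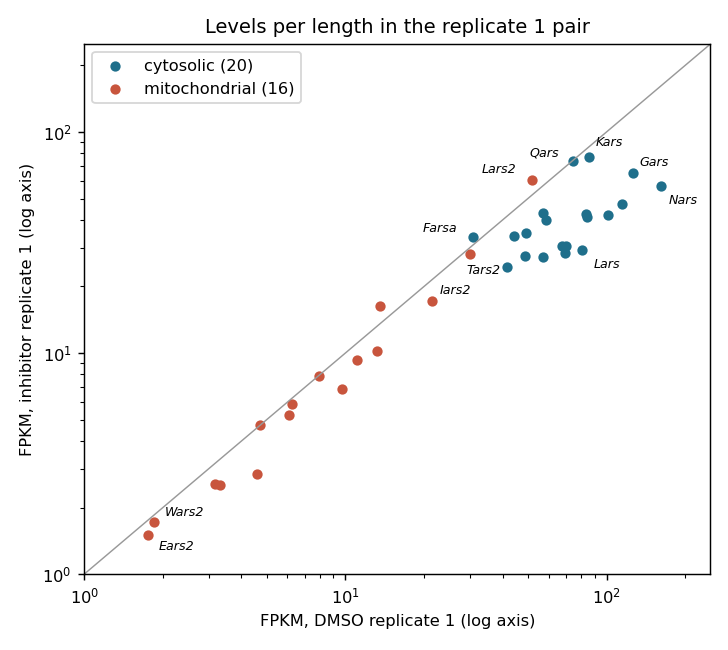
FPKM of the 36 synthetase genes in the replicate 1 pair, DMSO on the x axis and inhibitor on the y axis, both on log scales, with 1 point per gene and the line of equal values. Cytosolic genes lie at 30.8 FPKM or above in DMSO and 18 of 20 lie below the line, as do 13 of 16 mitochondrial genes, among them *Aars2* at 4.57 and 2.85 FPKM.

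Of the 20 cytosolic synthetases, 17 were lower with the inhibitor at an adjusted p under 0.05 (edgeR's quasi-likelihood test, Benjamini-Hochberg over all genes tested, 2 libraries against 2). *Kars* and *Qars* were higher and *Dars* did not pass. Among all genes tested 63.8% passed in either direction, 32.3% as lower and 31.5% as higher, so the 85% of cytosolic genes called lower stood against 32.3%. The median log2 fold change was −1.002 for the cytosolic genes and 0.01 for all genes tested. Counting only genes that also changed by over 1.5-fold, 14 of the 20 cytosolic genes were lower, against 19.6% of all genes. In bulk RNA, fewer cells of a type and less RNA per cell cannot be told apart.

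The mitochondrial synthetases divided. Of 16 genes, 9 were lower, 5 were higher and 2, *Nars2* and *Tars2*, did not pass, by the same test. The 31.2% called higher lay near the 31.5% of all genes, and the 56.2% called lower lay above the 32.3%. Over 1.5-fold, 5 of the 16 were lower, against 19.6% of all genes, and 4 were higher, against 20.3% of all genes. The median log2 fold change of the mitochondrial genes was −0.30, within a range from −1.27 to 1.35, and −0.17 with libraries scaled by their totals alone.

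Among the unreplicated FPKM values, 18 of the 20 cytosolic genes were lower with the inhibitor on the scale of log2(FPKM + 1), against 45.7% of all genes that reached 1 FPKM in each library of the pair. Of these, 13 were over 1.5-fold lower, against 7.47% of those genes. The cytosolic median log2 ratio was −0.94 and that of the mitochondrial genes −0.17, with 13 of 16 mitochondrial genes lower. With this pseudocount of 1, which shrinks the changes of low genes, no mitochondrial gene passed 1.5-fold in either direction, where 13.8% of all such genes were over 1.5-fold higher. With a pseudocount of 0.1 the log2 ratio of *Aars2* was −0.66 in place of −0.53, which is over 1.5-fold lower. A pair of libraries has no replicate check. The direction called from the counts was also the direction in this pair for 17 of the 19 cytosolic genes called. These 17 include *Qars*, whose log2 ratio was only 0.001. For the mitochondrial genes the direction was the same in 10 of the 14 called.

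**Figure D2:**
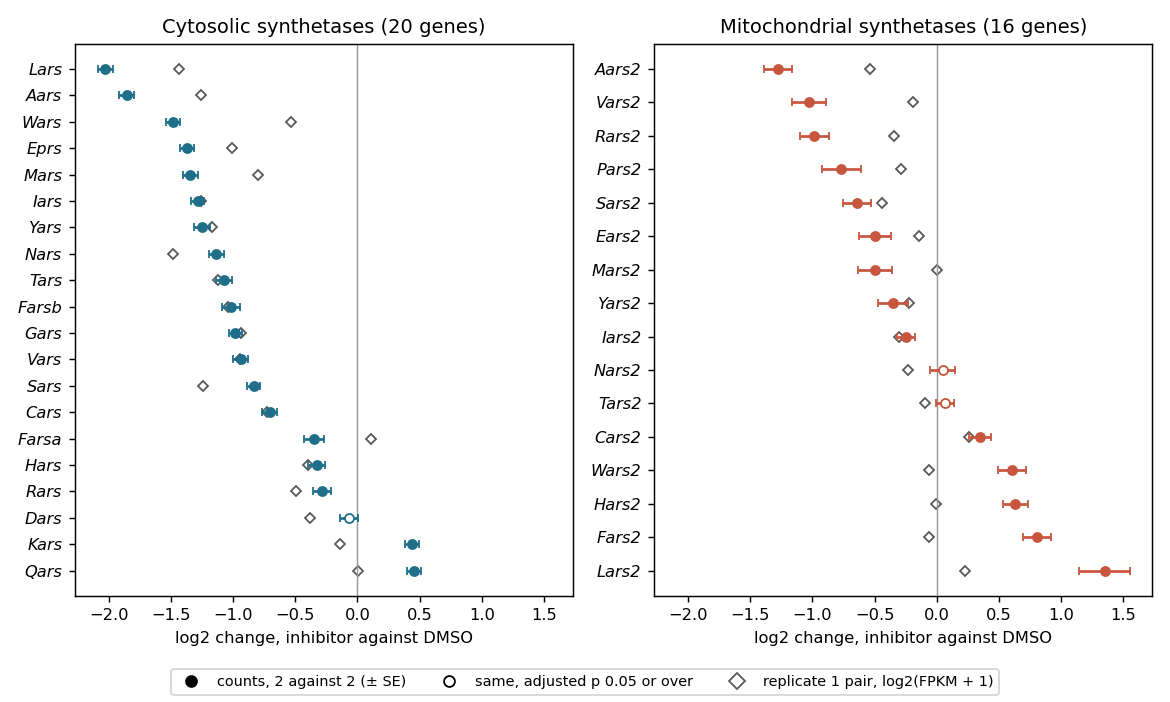
Log2 change with the inhibitor against DMSO for the 20 cytosolic (left) and 16 mitochondrial (right) synthetase genes. Filled circles are edgeR log2 fold changes from 2 against 2 libraries with their SE, open circles are genes with an adjusted p of 0.05 or over, and diamonds are log2 ratios of FPKM + 1 in the replicate 1 pair. Cytosolic values run from −2.03 for *Lars* to 0.45 for *Qars*, and mitochondrial values from −1.27 for *Aars2* to 1.35 for *Lars2*; *Dars* changes sign under other scalings of the counts.

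*Lars*, cytosolic leucyl-tRNA synthetase, which is also known as a leucine sensor upstream of mTORC1, stood at 263 and 275 CPM in the DMSO libraries and at 64.1 and 67.6 CPM with the inhibitor. Both inhibitor libraries lay far below both DMSO libraries. It was 4.09-fold lower, a log2 fold change of −2.03 ± 0.0612 (SE, 2 against 2, edgeR with Benjamini-Hochberg adjusted p = 9.02e-09), the largest fall among the 36 genes. Its values in the replicate 1 pair were 80.8 FPKM in DMSO and 29.2 FPKM with the inhibitor.

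*Aars*, which charges alanine, was at 519 and 539 CPM in DMSO and at 140.5 and 151 CPM with the inhibitor. The groups were well apart, and the replicate 1 pair moved the same way, from 115 FPKM to 47.4 FPKM. Its log2 fold change was −1.86 ± 0.0584 (SE; edgeR, Benjamini-Hochberg adjusted p = 1.07e-08). *Wars*, the tryptophan enzyme and a known interferon-induced gene, had 385 and 406 CPM in DMSO and 141 and 142 CPM with the inhibitor. Its inhibitor libraries were nearly equal and below both controls, with a log2 fold change of −1.49 ± 0.0553 (SE; edgeR, Benjamini-Hochberg adjusted p = 2.09e-08). A smaller difference appeared for *Wars* in the replicate 1 pair, 58.4 FPKM in DMSO and 40.0 FPKM with the inhibitor.

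*Iars*, the isoleucine enzyme, was at 385 and 396 CPM in DMSO and at 159 and 161 CPM with the inhibitor, and at 69.3 and 28.4 FPKM in the replicate 1 pair. Levels were lower in all 3 inhibitor libraries than in the DMSO libraries made with the same kit, with a log2 fold change in the counts of −1.29 ± 0.0529 (SE; edgeR, Benjamini-Hochberg adjusted p = 3.98e-08). *Eprs*, a single protein that charges both glutamate and proline, was at 482 and 514 CPM in DMSO and at 198 and 186 CPM with the inhibitor, and at 84.5 and 41.4 FPKM in the replicate 1 pair. Its groups did not overlap, and its log2 fold change was −1.37 ± 0.0582 (SE; edgeR, Benjamini-Hochberg adjusted p = 4.69e-08).

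*Gars*, the glycine enzyme of both compartments, was at 303 and 307 CPM in DMSO and at 152 and 157 CPM with the inhibitor. It behaved like the cytosolic majority, with a log2 fold change of −0.98 ± 0.0542 (SE; edgeR, Benjamini-Hochberg adjusted p = 2.26e-07) and values of 126 and 65.3 FPKM in the replicate 1 pair. The 7 further cytosolic genes lower without a place below, *Mars*, *Yars*, *Nars*, *Tars*, *Vars*, *Sars* and *Rars*, had log2 fold changes from −1.34 for *Mars* to −0.29 for *Rars*. All 7 were lower in the replicate 1 pair too. The call for *Rars* was lost when libraries were scaled by their totals alone.

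*Kars*, the lysine enzyme of both compartments, was at 188 and 194 CPM in DMSO and at 264 and 253 CPM with the inhibitor. Both inhibitor libraries lay above both DMSO libraries, at a log2 fold change of 0.44 ± 0.0555 (SE; edgeR, Benjamini-Hochberg adjusted p = 6.04e-05), while the replicate 1 pair gave 85.3 FPKM in DMSO and 77.2 FPKM with the inhibitor. *Qars*, which charges glutamine in the cytosol, was at 155 CPM in both DMSO libraries and at 214 and 211 CPM with the inhibitor. It was likewise higher in the counts, with a log2 fold change of 0.45 ± 0.0543 (SE; edgeR, Benjamini-Hochberg adjusted p = 3.98e-05), and at 74.2 FPKM in both libraries of the replicate 1 pair. Neither rise reached 1.5-fold, at 1.35-fold for *Kars* and 1.37-fold for *Qars*.

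*Dars*, the aspartate enzyme, was at 143 and 134 CPM in DMSO and at 139.5 and 124 CPM with the inhibitor, so its groups overlapped. Its log2 fold change of −0.07 ± 0.0714 did not pass (SE; edgeR, Benjamini-Hochberg adjusted p = 0.411). Without inhibitor replicate 2 it was called lower, at −0.16, which makes 18 of 20 cytosolic genes lower. Values in the replicate 1 pair were 44.4 FPKM in DMSO and 33.9 FPKM with the inhibitor.

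*Kars*, *Qars* and *Dars*, the 3 cytosolic genes not called lower with all 4 libraries, all encode members of the multisynthetase complex. Of the 8 genes for enzymes of that complex, 5 were lower (62.5%, beside 32.3% of all genes) and 2 higher (25%, beside 31.5%). The remaining gene did not pass, and the median log2 fold change of the 8 was −0.79. All 12 genes for cytosolic enzymes outside the complex were lower, with a median of −1.002 and a range from −1.86 to −0.33. The complex was not uniform, since *Lars*, *Eprs*, *Mars* and *Iars*, with 4 of the 6 largest falls among the cytosolic genes, also belong to it. This difference between the 2 sets was not tested. Lower FPKM with the inhibitor in the replicate 1 pair was seen for 7 of the 8 genes of the complex and 11 of the 12 outside it.

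The catalytic classes, which differ in the fold of the active site, gave similar counts among the cytosolic genes. Of 9 class I genes, 8 were lower (88.9%, beside 32.3% of all genes) and *Qars* was higher (11.1%, beside 31.5%), with a median log2 fold change of −1.25. Of 10 class II genes, 8 were lower (80%), *Kars* was higher (10%) and *Dars* did not pass, with a median of −0.91. *Eprs* holds an enzyme of each class and was left out of these counts. Among the mitochondrial genes, 6 of 9 of class I were lower (66.7%, beside 32.3% of all genes). The 3 of class I called higher (33.3%) lay near the 31.5% of all genes. Of class II, 3 of 7 were lower (42.9%, beside 32.3%) and 2 higher (28.6%, beside 31.5%).

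*Aars2*, mitochondrial alanyl-tRNA synthetase, had the smallest p of the mitochondrial genes. It stood at 21.8 and 24.8 CPM in DMSO and at 9.41 and 9.83 CPM with the inhibitor, and at 4.57 and 2.85 FPKM in the replicate 1 pair. The fall appeared with both library kits, with a log2 fold change in the counts of −1.27 ± 0.113 (SE; edgeR, Benjamini-Hochberg adjusted p = 4.84e-06). *Rars2*, the arginine enzyme, was at 21.1 and 20.5 CPM in DMSO and at 11.3 and 9.65 CPM with the inhibitor. Its groups did not overlap, its log2 fold change was −0.99 ± 0.116 (SE; edgeR, Benjamini-Hochberg adjusted p = 3.52e-05), and the replicate 1 pair held 13.3 and 10.2 FPKM.

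*Vars2*, the valine enzyme, was at 26.4 and 26.7 CPM in DMSO and at 10.96 and 15.1 CPM with the inhibitor. The inhibitor libraries differed from each other more than the DMSO libraries did, and both were lower, at a log2 fold change of −1.03 ± 0.139 (SE; edgeR, Benjamini-Hochberg adjusted p = 9.37e-05). FPKM values of *Vars2* were close, at 6.10 FPKM in DMSO and 5.24 FPKM with the inhibitor. The other 6 mitochondrial genes called lower, *Pars2*, *Sars2*, *Ears2*, *Mars2*, *Yars2* and *Iars2*, had log2 fold changes from −0.77 for *Pars2* to −0.25 for *Iars2*. Calls for *Ears2*, *Mars2*, *Yars2* and *Iars2* were lost under at least 1 other scaling, with DESeq2 or without 1 library, and in the replicate 1 pair *Mars2* was at 4.70 and 4.72 FPKM.

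*Fars2*, the mitochondrial phenylalanine enzyme, was higher, at 14.2 and 12.0 CPM in DMSO and at 23.6 and 22.3 CPM with the inhibitor. Both inhibitor libraries exceeded both DMSO libraries, at a log2 fold change of 0.81 ± 0.113 (SE; edgeR, Benjamini-Hochberg adjusted p = 0.000118). This rise was not seen in the replicate 1 pair, with 6.22 FPKM in DMSO and 5.90 FPKM with the inhibitor. *Hars2*, the histidine enzyme, was at 29.8 and 26.0 CPM in DMSO and at 46.4 and 40.1 CPM with the inhibitor. Its log2 fold change was 0.63 ± 0.101 (SE; edgeR, Benjamini-Hochberg adjusted p = 0.000305), with groups that did not overlap, and the replicate 1 pair was level at 7.89 and 7.84 FPKM.

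*Wars2*, the tryptophan enzyme of mitochondria, was at 10.5 and 11.2 CPM in DMSO and at 17.1 and 15.9 CPM with the inhibitor. It rose by a log2 fold change of 0.61 ± 0.113 (SE; edgeR, Benjamini-Hochberg adjusted p = 0.00083), and stood at 1.84 and 1.73 FPKM in the replicate 1 pair. *Cars2*, the cysteine enzyme, was at 32.3 and 33.2 CPM in DMSO and at 39.5 and 43.9 CPM with the inhibitor. Its log2 fold change of 0.35 ± 0.0854 was smaller (SE; edgeR, Benjamini-Hochberg adjusted p = 0.00468), and the replicate 1 pair moved the same way, from 13.5 FPKM to 16.4 FPKM.

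*Nars2*, for asparagine, was at 22.5 and 20.2 CPM in DMSO and at 23.1 and 21.0 CPM with the inhibitor. *Tars2*, for threonine, was at 59.7 and 64.3 CPM in DMSO and at 64.0 and 65.9 CPM with the inhibitor. In both genes the groups overlapped, with log2 fold changes of 0.05 ± 0.103 and 0.07 ± 0.0703 (SE; edgeR, Benjamini-Hochberg adjusted p = 0.701 and 0.426). With libraries scaled by their totals alone *Tars2* was called higher, at 0.19, which makes 6 mitochondrial genes higher, beside 38% of all genes. FPKM values in the replicate 1 pair were 3.16 and 2.54 for *Nars2* and 30.0 and 27.9 for *Tars2*.

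*Lars2*, mitochondrial leucyl-tRNA synthetase, had the largest rise of the 36 genes and the widest spread. It was at 101 and 76.7 CPM in the DMSO libraries and at 286 and 167 CPM with the inhibitor. Both inhibitor libraries were above both DMSO libraries, and inhibitor replicate 2 was far above inhibitor replicate 3. The log2 fold change was 1.35 ± 0.203 (SE; edgeR, Benjamini-Hochberg adjusted p = 0.000201), and from 0.91 without inhibitor replicate 2 to 1.68 without inhibitor replicate 3. Its FPKM in the replicate 1 pair was 51.8 in DMSO and 60.8 FPKM with the inhibitor. *Lars2* took 22.1% and 17.6% of the summed mitochondrial synthetase CPM in DMSO and 45.9% and 33.3% with the inhibitor.

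A stretch of the *Lars2* mRNA is near-identical to parts of 2 other genes, so the counts of *Lars2* are uncertain where reads could be placed in more than one of them. The *Lars2* transcript compared, from GENCODE M21, is 3894 bases long with its coding part from base 200 to base 2905, and bases 3278 to 3349, in the 3′ untranslated region, match the gene *Gm15564* at 98.6% over 72 bases. The other gene, *AA474408*, matches at 94.8% over 97 bases and at 96% over 50 bases. *Gm15564*, chosen after its values were seen, had 10 and 7 counts in DMSO and 64 and 43 counts with the inhibitor, so it moved with *Lars2* at a far lower level. Its part in the *Lars2* result was not tested.

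For 6 pairs of genes for the same amino acid, the cytosolic gene was called lower and the mitochondrial gene higher. The cytosolic gene was called lower in every pair that could be formed, so these 6 only restate which mitochondrial genes were called higher. Those were 5 genes, 31.2% of the mitochondrial genes, near the 31.5% of all genes tested. The 6 pairs cover leucine, tryptophan, cysteine, histidine and phenylalanine. For phenylalanine, *Farsa* and *Farsb*, for the alpha and beta subunits of the cytosolic enzyme, are each set against the single-chain *Fars2*. The reverse could not be seen, since *Kars* and *Qars*, the cytosolic genes called higher, have no partner among the mitochondrial genes described. Of the cytosolic partners not yet given, *Cars* was at 193 and 195 CPM in DMSO and at 114 and 123 CPM with the inhibitor, and at 41.4 and 24.6 FPKM in the replicate 1 pair. Its groups were well apart, with a log2 fold change of −0.71 ± 0.0606 (SE; edgeR, Benjamini-Hochberg adjusted p = 3.83e-06). *Hars* was at 70.5 and 67.4 CPM in DMSO and at 54.4 and 55.5 CPM with the inhibitor, a log2 fold change of −0.33 ± 0.0679 (SE; edgeR, Benjamini-Hochberg adjusted p = 0.00165). FPKM values of *Hars* moved the same way in the replicate 1 pair, from 56.9 FPKM to 42.9 FPKM.

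The 2 subunits of cytosolic phenylalanyl-tRNA synthetase, which form the enzyme together in equal number, changed unequally. *Farsb* was at 67.7 and 70.9 CPM in DMSO and at 33.9 and 34.4 CPM with the inhibitor, a log2 fold change of −1.02 ± 0.0723 (SE; edgeR, Benjamini-Hochberg adjusted p = 1.06e-06). *Farsa* was at 54.6 and 57.0 CPM in DMSO and at 45.9 and 41.7 CPM with the inhibitor, a log2 fold change of −0.35 ± 0.078 (SE; edgeR, Benjamini-Hochberg adjusted p = 0.00261). Both subunits were lower without overlap in the counts, *Farsb* by more. In the replicate 1 pair *Farsb* was at 57.1 and 27.3 FPKM and *Farsa* at 30.8 and 33.4 FPKM, so per length *Farsb* exceeded *Farsa* in DMSO and lay below it with the inhibitor.

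Dividing the count of a cytosolic gene by that of its mitochondrial partner within a library removes any scaling between libraries. Gene length still enters this ratio, so only its change between libraries is read. Over the 17 pairs that could be formed, the mean log2 ratio was lower with the inhibitor in 15, with a median difference of −0.96. Of the FPKM ratios in the replicate 1 pair, 16 of 17 were lower. With 2 libraries against 2 an exact permutation test cannot give a two-sided p below 0.333, and none of these differences can pass 0.05 by that test.

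The largest change was in *Lars* to *Lars2*, whose log2 count ratio was 1.38 and 1.84 in DMSO and −2.16 and −1.31 with the inhibitor. The cytosolic gene thus had more counts than its partner in both DMSO libraries and fewer in both inhibitor libraries. The corresponding FPKM ratio was 1.56 in DMSO replicate 1 and 0.481 in inhibitor replicate 1. *Wars* to *Wars2* went from 5.20 and 5.18 to 3.04 and 3.15, and *Farsb* to *Fars2* from 2.25 and 2.56 to 0.52 and 0.62, both on the log2 scale and in the same order of libraries. The exceptions were *Rars* to *Rars2* and *Vars* to *Vars2*. The log2 ratio of *Rars* to *Rars2* was 2.37 and 2.36 in DMSO and higher, 3.04 and 3.09, with the inhibitor, while the FPKM ratio of the replicate 1 pair was 3.71 and then 3.40. For *Vars* to *Vars2* the log2 ratio was 4.05 and 4.12 in DMSO and 4.37 and 4.01 with the inhibitor, overlapping groups whose difference of 0.11 turned to −0.07 without inhibitor replicate 2.

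**Figure D3:**
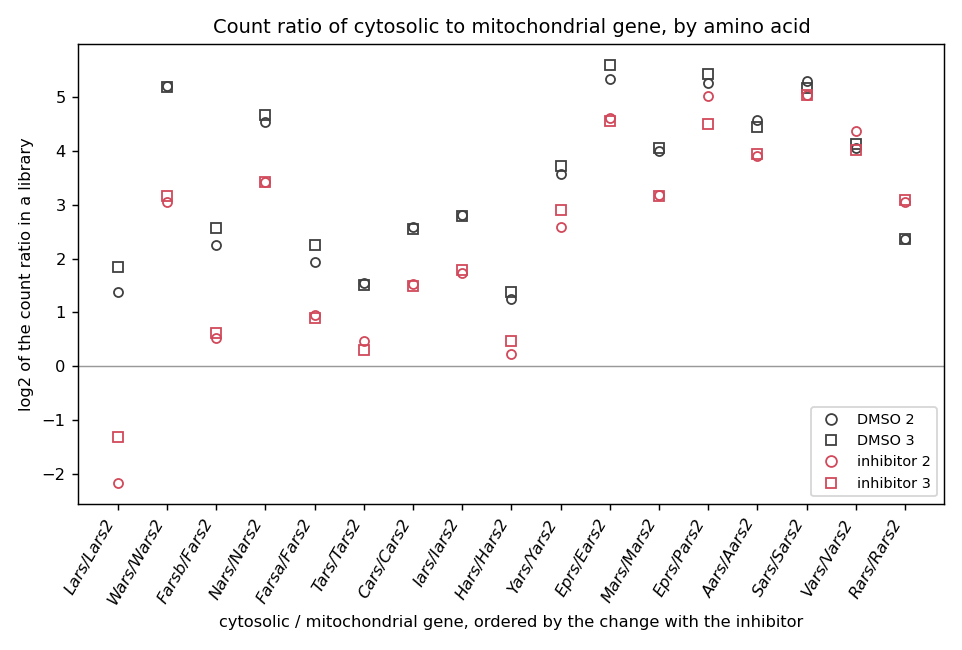
Log2 of the count of the cytosolic gene over the count of the mitochondrial gene in each of the 4 count libraries, for 17 pairs of genes for the same amino acid, ordered by the change with the inhibitor. Black marks are DMSO libraries, red marks inhibitor libraries, circles replicate 2 and squares replicate 3. Red marks lie below black marks in 15 of 17 pairs, most for *Lars/Lars2*, and above both black marks for *Rars/Rars2*.

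Summed over genes, the cytosolic synthetases reached 5372 and 5514 CPM in DMSO and 2832 and 2823 CPM with the inhibitor. The mitochondrial synthetases summed to 458 and 436 CPM in DMSO and to 622 and 502 CPM with the inhibitor, and without *Lars2* to 357 and 359.9 CPM and then 336 and 335 CPM. The cytosolic sum was thus far lower in both inhibitor libraries, and the higher mitochondrial sum rested on *Lars2*. The ratio of summed cytosolic to summed mitochondrial counts was 11.7 and 12.6 in DMSO and 4.55 and 5.62 with the inhibitor, a mean log2 change of −1.27. Taken instead as the difference of the mean log2 values, in which each gene weighs the same, the change was −0.72. In FPKM of the replicate 1 pair this ratio was 7.91 in DMSO and 4.52 with the inhibitor, a log2 change of −0.81. Without *Lars2*, an alternative chosen after seeing the data, the count ratios were 15.04 and 15.3 in DMSO and 8.42 and 8.43 with the inhibitor, a log2 change of −0.85.

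In the GENCODE annotation of the mouse build GRCm38 (mm10), 13 of the 36 genes share exonic bases with another gene, all 13 with a gene on the opposite strand, and the counting of replicates 2 and 3 is not stated to use strand. *Hars* (chr18:36766528-36783205, minus strand) and *Hars2* (chr18:36783008-36792562, plus strand) lie head to head and share 195 exonic bases, 7.97% of the exonic bases of *Hars* and 4.56% of those of *Hars2*. Their changes went in opposite directions. *Iars2* (chr1:185284726-185329396, minus strand) shares 2034 exonic bases, 22.9% of its own, with *Rab3gap2*, whose log2 fold change was 0.22 ± 0.0735 (SE). *Aars* (chr8:111033144-111057664, plus strand) shares 1326 bases, 14.3%, with *Exosc6* on the same strand, whose log2 fold change was −2.97 ± 0.481 (SE). *Fars2* (chr13:36117412-36726280, plus strand) shares 501 bases with *Nrn1*, whose log2 fold change was −1.28 ± 0.0751 (SE), opposite to the rise of *Fars2*. *Lars* (chr18:42202298-42262194, minus strand) and *Lars2* (chr9:123366927-123462666, plus strand) share no exonic base with another annotated gene. How reads in shared bases were counted is not given in the sources used here, and their part in these values was not tested.

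Promoter windows, from 250 bases before to 50 bases after the RefSeq start (build GRCm38.p6), were found for 27 of the 36 genes, 13 cytosolic and 14 mitochondrial. No window was held for *Cars*, *Hars*, *Lars*, *Nars*, *Rars*, *Vars*, *Wars*, *Hars2* and *Pars2*. The windows were searched on both strands for TGATGNAA, the letters of a composite element that ATF4 is known to bind with C/EBP proteins, and for CACGTG, the E-box letters. TGATGNAA was found in 5 of the 13 cytosolic windows, those of *Aars*, *Gars*, *Iars*, *Tars* and *Yars*, in 0 of the 14 mitochondrial genes with a window, and in 3.97% of all 32851 promoter windows. CACGTG was found for 4 of 13 cytosolic genes (*Aars*, *Farsb*, *Iars* and *Tars*), for 1 of 14 mitochondrial genes (*Ears2*) and in 7.15% of all windows. The 5 cytosolic genes with TGATGNAA had log2 fold changes from −1.86 to −0.98, with a median of −1.25. The 8 cytosolic genes whose window lacks it ranged from −1.37 to 0.45, with a median of −0.59. The 7 cytosolic genes with no window held, *Lars* among them, ranged from −2.03 to −0.29, with a median of −0.94. A match describes letters in a window, with no binding measured here.

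A match in each of these 5 windows is shown as 30 bases read 5′ to 3′ on the strand of the gene. The 8 bases that match are in capitals. For *Yars* these are TGATGNAA itself and for the others its reverse complement. The first base of the match shown lies 10 bases after the start for *Aars*, 30 bases before it for *Gars*, 8 bases after it for *Iars*, 15 bases before it for *Tars* and 4 bases after it for *Yars*. The sequences are from RefSeq, GRCm38.p6.
*Aars*, chr8:111033840-111033869, plus strand: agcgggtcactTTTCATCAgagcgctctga
*Gars*, chr6:55037960-55037989, plus strand: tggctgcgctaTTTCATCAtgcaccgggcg
*Iars*, chr13:49682126-49682155, plus strand: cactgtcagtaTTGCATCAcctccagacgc
*Tars*, chr15:11399655-11399684, minus strand: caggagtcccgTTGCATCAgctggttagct
*Yars*, chr4:129189895-129189924, plus strand: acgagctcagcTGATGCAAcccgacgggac

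Genes of the amino acid starvation response stood beside the synthetases, with 9 of 9 lower (median log2 fold change −2.05) against 32.3% of all genes. This list was chosen with earlier results of these data known, so the count describes the list and is no independent check. *Atf5*, a transcription factor made under stress, was at 223 and 230.2 CPM in DMSO and at 33.0 and 35.9 CPM with the inhibitor, a log2 fold change of −2.72 ± 0.0677 (SE; edgeR, Benjamini-Hochberg adjusted p = 3e-09). *Trib3*, a pseudokinase that restrains ATF4, was at 222 and 242 CPM and then 38.1 and 37.8 CPM. *Nupr1*, a stress-induced chromatin protein, was at 28.4 and 31.6 CPM and then 1.13 and 1.65 CPM. In each of the 3 genes both inhibitor libraries lay far below both DMSO libraries. The list's median in the replicate 1 pair was −1.69 on the scale of log2(FPKM + 1). *Sesn2*, a gene of the list, went the other way in that pair, from 54.3 FPKM in DMSO to 59.0 FPKM with the inhibitor. TGATGNAA was found in the promoter windows of 5 of these 9 genes.

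Of the 3 scaffold genes of the multisynthetase complex, 1 was lower and 2 did not pass, with 33.3% lower beside 32.3% of all genes. *Aimp1* was at 105 and 101 CPM in DMSO and at 116 and 110.0 CPM with the inhibitor, and *Aimp2* at 55.4 and 52.5 CPM and then 55.6 and 58.1 CPM. Neither passed (edgeR, Benjamini-Hochberg adjusted p = 0.0872 and 0.369). When libraries were scaled by their totals alone, though, 2 of the 3 scaffold genes were called higher, beside 38% of all genes. *Eef1e1*, the remaining scaffold gene, was lower, at 30.4 and 31.4 CPM in DMSO and at 22.3 and 20.9 CPM with the inhibitor (log2 fold change −0.51 ± 0.0899, SE). All 3 had negative log2 ratios in the replicate 1 pair, with a median of −0.20.

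Mitochondria lack a glutaminyl-tRNA synthetase and make this charged tRNA with an amidotransferase. Of 4 genes for its subunits and for the formylation of the initiator tRNA, 2 were higher and none lower, the 2 being *Gatc* (19.1 and 16.8 CPM in DMSO, 25.9 and 23.6 CPM with the inhibitor) and *Qrsl1* (7.33 and 7.50 CPM, then 9.61 and 10.9 CPM). *Mtfmt*, the formyltransferase, was at 13.2 and 12.5 CPM and then 12.1 and 12.6 CPM, with overlapping groups. All genes tested had 31.5% higher, and 1 of the 4 was higher with DESeq2, without DMSO replicate 2 or without DMSO replicate 3. No such rise appeared in the replicate 1 pair, with a median log2 ratio of −0.20.

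Among 7 genes for editing factors, deacylases and peptidyl-tRNA hydrolases, 3 were lower (42.9%, beside 32.3% of all genes) and 1 was higher (14.3%, beside 31.5%). *Aarsd1*, which removes serine wrongly joined to alanine tRNA, was at 27.4 and 29.2 CPM in DMSO and at 6.79 and 7.998 CPM with the inhibitor, a log2 fold change of −1.94 ± 0.117 (SE) beside the −1.86 of *Aars*. *Ptrhd1* was higher, at 5.16 and 6.10 CPM and then 10.96 and 9.56 CPM.

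Of 24 genes for tRNA maturation and export, 10 were lower (41.7%, beside 32.3% of all genes) and 5 higher (20.8%, beside 31.5%), with a median log2 fold change of −0.22. The number lower was 6 with libraries scaled by their totals alone, where 26.4% of all genes were lower. The number lower also fell without DMSO replicate 3. *Xpot*, the tRNA exporter, was at 284 and 289 CPM in DMSO and at 74.7 and 79.2 CPM with the inhibitor, a log2 fold change of −1.90 ± 0.0593 (SE; edgeR, Benjamini-Hochberg adjusted p = 1.07e-08). The fall lay between those of *Lars* and *Aars*, and in the replicate 1 pair *Xpot* went from 49.6 FPKM to 19.5 FPKM. *Rpp14*, of ribonuclease P, was at 19.7 and 20.5 CPM and then 9.52 and 11.01 CPM. *Ssb*, which binds the ends of new tRNA precursors, was at 127 and 126 CPM and then 91.3 and 85.3 CPM.

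RNA polymerase III, which makes tRNA, showed no common direction. Of 21 genes for its subunits and factors, 8 were lower and 7 higher, near the shares of all genes, with a median log2 fold change of −0.07. With libraries scaled by their totals alone 5 were lower, beside 26.4% of all genes. *Gtf3c4* was at 38.5 and 37.5 CPM in DMSO and at 61.5 and 60.4 CPM with the inhibitor, and *Bdp1* at 68.2 and 66.2 CPM and then 46.9 and 45.3 CPM. Both had groups that did not overlap, *Gtf3c4* higher and *Bdp1* lower with the inhibitor.

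On the mitochondrial side, the 11 genes for translation factors had 3 lower (27.3%) and 4 higher (36.4%), near the 32.3% and 31.5% of all genes, with a median log2 fold change of 0.07 and a median log2 ratio of −0.20 in the replicate 1 pair. *Mtif3*, an initiation factor, was at 26.5 and 27.5 CPM in DMSO and at 44.2 and 41.9 CPM with the inhibitor, and *Guf1* at 22.7 and 23.8 CPM and then 49.0 and 36.6 CPM. *Guf1* went the other way in the replicate 1 pair, from 6.07 to 4.12 FPKM. *Mtif2*, another initiation factor, was lower, at 42.6 and 37.8 CPM and then 25.9 and 27.8 CPM. Of 78 genes for proteins of the mitochondrial ribosome, 40 were lower (51.3%, beside 32.3% of all genes) and 11 higher (14.1%, beside 31.5%), with a median log2 fold change of −0.28, beside −0.30 for the mitochondrial synthetases under the same scaling. The number higher was 22 with libraries scaled by their totals alone, where 38% of all genes were higher. With upper-quartile scaling the number was 18, where 35.8% of all genes were higher. It fell without DMSO replicate 2 and without DMSO replicate 3. *Mrps6* was higher, at 30.9 and 33.2 CPM in DMSO and at 79.2 and 77.2 CPM with the inhibitor. *Mrps2* and *Mrpl17* were lower, from 24.2 and 23.3 CPM to 7.66 and 7.02 CPM and from 26.5 and 30.1 CPM to 9.47 and 9.12 CPM, and level in the replicate 1 pair, at 12.6 and 13.1 FPKM for *Mrps2* and 4.02 FPKM in both libraries for *Mrpl17*.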

How the data were processed

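RNA-seq libraries of splenic CD4+ T cells were grouped by their labels into DMSO and MAPK13 inhibitor, 3 per group. For replicates 2 and 3 the authors deposited raw counts per gene, and the submitters' processing notes name fastp 0.21.0, HISAT2 2.1.0, StringTie 2.1.5, DESeq2 1.30.1 and the build mm10, with no role or order. For the replicate 1 pair the authors deposited values read here as FPKM, since they are not whole numbers and sum to 405150 and 390729 over 34714 genes; the notes name FastQC, HISAT2 and GRCm38. The annotation is not given in the sources used here, and 0 columns of the tables were left unused.

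Counts were fitted in R 4.3.3 with edgeR 4.0.16 (filterByExpr with a minimum count of 10 and a minimum total of 15, TMM, glmQLFit and glmQLFTest, no covariate), with Benjamini-Hochberg adjustment of p over 16269 genes. The TMM factors were 0.96 and 0.955 for DMSO and 1.05 and 1.04 for the inhibitor. The fit was tested on simulated data. FPKM ratios used a pseudocount of 1 and understate changes of low genes. Replicates differed by more than sampling noise, with a mean chi-square per gene of 2.94 in DMSO and 8.82 with the inhibitor. *Lars2* was aligned to GENCODE M21 transcripts with blastn 2.17.0, and stretches of at least 50 bases at 90% identity or more were kept. Of 28 promoter windows, 25 had a run of 20 bases after the start in a transcript of the same gene and 0 on the other strand.

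Values were given for every library for the 5 cytosolic and the 5 mitochondrial genes with the smallest p, for genes that moved against most of their compartment or did not pass, for *Gars* and *Kars*, and for both genes of amino acids whose genes passed in opposite directions. Up to 3 genes with the smallest p were named from each related list; some items are not reported here. The lists were the multisynthetase complex scaffold, the glutaminyl-tRNA amidotransferase with methionyl-tRNA formylation, editing factors, tRNA maturation and export, RNA polymerase III, mitochondrial translation factors, the amino acid starvation response, mitochondrial ribosomal proteins, mitochondrially encoded proteins (added after seeing the data), and markers of CD4 T cells, B cells, CD8 T cells, natural killer cells, macrophages and dendritic cells, neutrophils and erythroid cells. The members and lists were chosen with earlier results of these data known. Alternatives were RLE, upper-quartile and library-total scaling, other filters, DESeq2 1.42.0, a block for the number of the replicate, other thresholds and pseudocounts, and each library left out in turn.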

Additional observations from a re-analysis of the deposited data

How the results depend on the processing

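Over 11 other settings, 376 of 396 comparisons of a single synthetase gene kept their direction and their side of an adjusted p of 0.05, and 28 of the 36 genes did so in all 11. *Dars* turned positive with upper-quartile scaling (0.0112) and library totals (0.0557), and ranged from −0.1583 to 0.0069 with 1 library left out. *Nars2* ranged from −0.0376 to 0.1142 and the *Vars* to *Vars2* log2 ratio from −0.0724 to 0.2847 with 1 library left out. The causes were not tested.

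Scaling by library totals moved the median of all genes tested to 0.1367. The cytosolic median was −0.9213 with upper-quartile scaling, −0.8766 with library totals, −0.9568 with at least 10 counts in every library, −1.0474 without *Gars* and *Kars*, and from −1.0362 to −0.9835 with 1 library left out. The mitochondrial median was −0.2193 with upper-quartile scaling, −0.1746 with library totals, and from −0.363 to −0.2469 with 1 library left out. The replicate 1 cytosolic median was −0.9985 after rescaling. With over 1.5-fold also required, a threshold added after seeing the data, 0 cytosolic genes were higher, beside 20.3% of all genes. At that threshold 5 mitochondrial genes were lower, beside 19.6% of all genes. The change in the summed ratio was −0.7179 as a mean of log2 values, −0.8497 without *Lars2* and −0.6199 with both.

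Only a number in the labels links same-numbered libraries. Their deviations had a correlation of 0.005, which with 2 libraries per group cannot show whether they shared a culture or an animal. A fit with the replicate block gave 17 cytosolic genes lower and 2 higher and 9 mitochondrial genes lower and 5 higher, the same calls as without it. With 1 library left out, the lone library is assumed to vary like the other group. DESeq2 called 4291 genes lower and 4016 higher.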

Other observations

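The 13 proteins encoded by mitochondrial DNA, which the mitochondrial synthetases serve, form a list added after seeing the data. Of these genes, 8 were lower with the inhibitor and none higher by edgeR with Benjamini-Hochberg adjustment, against 32.3% and 31.5% of all genes tested, with a median log2 fold change of −0.23. With libraries scaled by their totals alone 6 were lower and 3 higher, and 3 were also higher without inhibitor replicate 3. With that scaling by totals, 26.4% of all genes were lower and 38% higher. Of the 13 genes, 1 was higher with upper-quartile scaling, without a filter, with at least 10 counts in every library or with the replicate block. *ND1* was at 410.0 and 425 CPM in DMSO and at 313 and 288 CPM with the inhibitor, and *ND6*, the one gene of the light strand, at 70.9 and 61.8 CPM and then 45.9 and 44.5 CPM. *COX1*, with the most counts of the 13, was at 5237 and 5125 CPM in DMSO and at 5777 and 4999 CPM with the inhibitor, so its groups overlapped. These genes have no values in the replicate 1 tables used here, and the genes named were chosen after their values were seen.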
